A study of Mus musculus with 6 samples.

Results

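The genes of cholesterol supply in the mouse hippocampus were described in 32 members, of 20620 genes in the deposited count table, chosen by symbol from a fixed list. They comprise 18 enzymes of synthesis, 7 regulators, 3 genes of uptake and transport inside the cell and 4 genes of export. All 32 were found in the table and all 32 were tested, against 20604 genes tested in all. The members had at least 31 counts in every library. Hippocampal RNA of 6 adult male mice was sequenced, 1 library per mouse. The 3 n-Braf mice had the genotype Braf Q241R/+ ;CaMKII-Cre and were 33, 32 and 34 weeks old. The 3 control mice had the genotype Braf Q241R Neo/+ and were 32, 32 and 31 weeks old. Both groups were on the C57BL/6J background and both carried 1 mutant allele. In the controls the Neo cassette was still in place. A CaMKII promoter drives Cre in forebrain excitatory neurons, so the recombined allele belongs to 1 of the many cell types in this bulk tissue. The Cre transgene and the loss of the cassette differ between the groups together and cannot be told apart, and no wild-type hippocampus was analysed here. BRAF is the kinase between RAS and MEK, and the comparison asks which hippocampal transcripts differ once the mutant form is switched on in mature excitatory neurons.

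The brain makes its own cholesterol, because lipoproteins of the blood do not cross the blood-brain barrier. Much of it lies in myelin, and in the adult the glia are thought to make most of what neurons use. Synthesis runs from acetyl-CoA through mevalonate, farnesyl diphosphate and squalene to lanosterol and then to cholesterol. The transcription factor SREBP2 raises these enzymes when sterols in the endoplasmic reticulum are low. When oxysterols are high, the liver X receptors (LXR) raise the genes that export cholesterol.

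Libraries held between 25227112 and 31832245 assigned counts. Braf, the targeted gene, had 185, 184 and 205 CPM in n-Braf, against 116, 123 and 116 CPM in the controls. That is 0.69 ± 0.07 (SE) as a log2 fold change, with every n-Braf library above every control. Its adjusted p was 0.0533 in edgeR's quasi-likelihood test, so even the targeted gene was not called at 0.05. By the authors' deposited table, Braf had an adjusted p of 2.13e-08. It averaged 191 ± 12.1 CPM in n-Braf, against 119 ± 4.18 CPM among control mice (SD, n = 3 each), where CPM is the gene's count per 1000000 counts of its library, after TMM scaling (trimmed mean of M values). Markers of excitatory neurons were abundant in every library, with Camk2a between 2120 and 2904 CPM. Markers of the choroid plexus, a tissue inside the ventricles, set libraries apart. The 10 markers tested summed to 23.2, 38.9 and 25.7 CPM in n-Braf, against 2422, 1358 and 37.5 CPM in controls 1, 2 and 3. The 17 markers of oligodendrocytes and myelin summed to 1626, 1656 and 2231 CPM in n-Braf and to 2214, 1925 and 2478 CPM in the controls, and 16 of the 17 had a lower mean in n-Braf (median log2 fold change -0.29). Among them Mbp, a structural protein of myelin, had a log2 fold change of -0.23. Of the choroid plexus markers Ttr had 3.32, 12.9 and 1.06 CPM in n-Braf, against 2036, 1121 and 13.8 CPM in the controls, and Kl had 12.5, 12.6 and 16.5 CPM in n-Braf, against 112, 77.5 and 12.7 CPM in the controls. In bulk tissue, fewer cells of a type and less RNA per cell cannot be told apart.

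None of the 32 cholesterol genes passed the threshold of an adjusted p of 0.05 in edgeR's quasi-likelihood test with Benjamini-Hochberg adjustment, and their smallest adjusted p was 0.543. Over all genes the same test called 0 of 20604, or 0%, with 1405 genes at an unadjusted p under 0.05. Braf, the targeted gene, was among those not called, so a gene not called here is not thereby shown to be unchanged. DESeq2 called 78 of all genes and 0 of the members, and without control 3 edgeR's test called 82 of all genes and 0 of the members. By the authors' deposited table, a share of 0.141% of genes had an adjusted p under 0.05, and none of the 32 was among them. At an unadjusted p under 0.05, 2 members were lower in n-Braf, against 3.73% of all genes, and 0 were higher, against 3.09% of all genes. These 2 were the exporter Abca1 and the lysosomal carrier Npc2. In 2 members, Abca1 and the desaturase Sc5d, every n-Braf library was below every control, against 5.44% of all genes, and in 0 was every n-Braf library above them, against 6.09% of all genes. Of the 32 log2 fold changes 17 were positive and 15 negative, with a median of 0.0082, beside 10102 positive, 10502 negative and a median of -0.0042 over all genes. With library size alone as the scaling, 13 were positive and 19 negative. At counts of 2 or fewer of 32, the members' shares are near the background.

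The 95% intervals give the size of difference that the libraries leave possible. In 28 of the 32 members the interval of the fold change lay within 1.5-fold in either direction, and in all 32 it lay within 2-fold. Over all genes tested, 56.9% had an interval within 1.5-fold. The intervals are per gene and not adjusted for the number of genes. The members that reached past 1.5-fold were Ebp, Srebf1, Nr1h3 and Npc2, each on the side of lower levels in n-Braf.

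**Figure D1:**
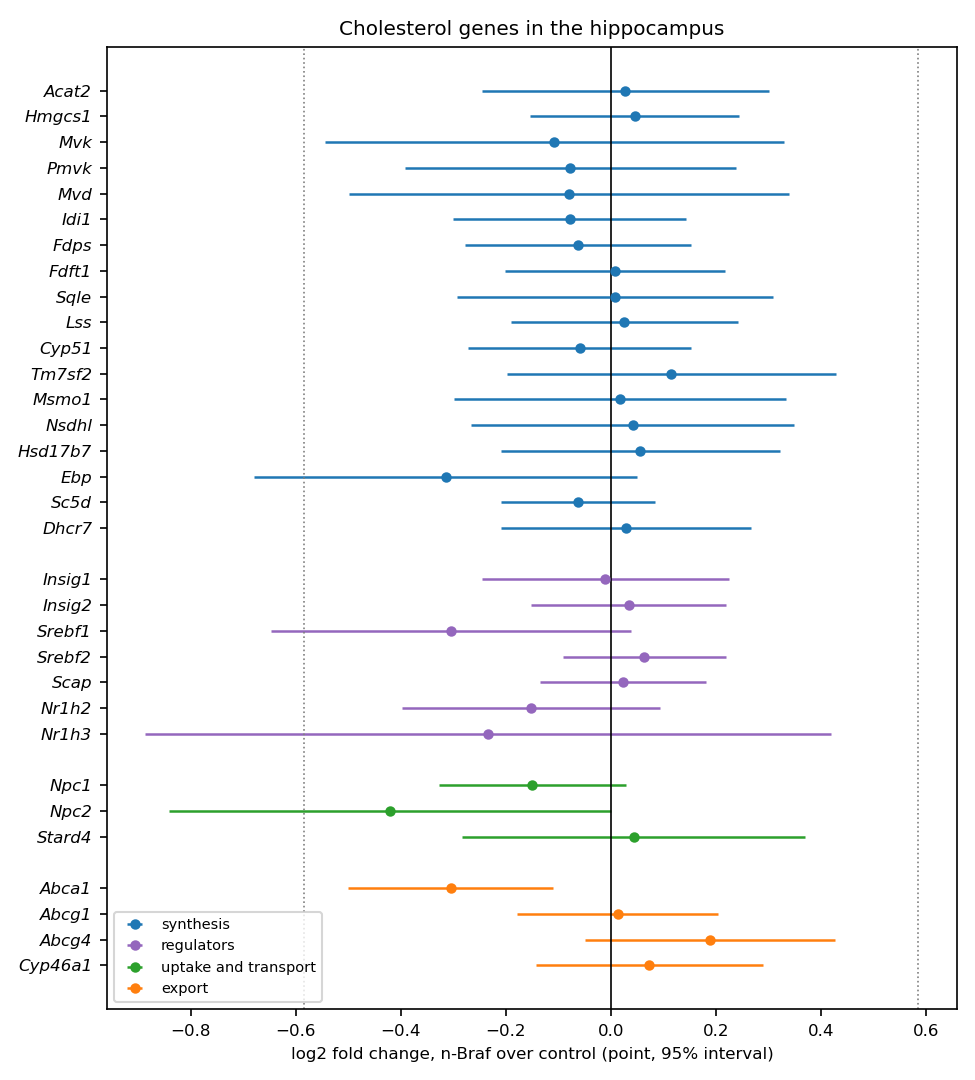
Log2 fold change of n-Braf over control for the 32 genes (point), with its 95% interval (line), grouped by role from top to bottom. Dotted lines mark a 1.5-fold difference in either direction. The 18 synthesis genes lie around 0 and the intervals of Abca1 and Npc2 end below it, at -0.11 and -0.00043.

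The enzymes of synthesis did not differ detectably between the groups. Of 18 members 10 had a positive and 8 a negative log2 fold change, with a median of 0.0082 and a range of -0.31 to 0.12, and 0 passed the test. With library size alone as the scaling, 7 were positive and 11 negative. In 17 of the 18 the 95% interval lay within 1.5-fold. Summed over the 18 genes, the level was 575, 528 and 485 CPM in n-Braf 1, 2 and 3, against 503, 531 and 559 CPM in controls 1, 2 and 3. The spread inside each group was wider than the distance between the groups. The median over the 18 was -0.084 with controls 1 and 2 left out, a fit in which the lone control is taken to vary as much as the n-Braf libraries do, and -0.063 with the mean of the myelin markers as a covariate.

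Sequences of promoters are shown for the members whose 300 bases around the RefSeq start hold a match to a sterol-linked motif, 250 before the start and 50 after it. RefSeq promoters (GRCm38.p6) were matched by symbol for 25 of the 32 genes, that is all but Fdps, Fdft1, Sqle, Npc1, Stard4, Abcg1 and Abcg4. The first motif was CACNCCAC, the core of the sterol regulatory element that SREBP binds, searched on both strands. It was found in Hmgcs1, Acat2 and Insig1, in 1 promoter each. That is 8.82% of the members' 34 promoters, beside 6.24% of all 32851 promoters. Capitals mark the matches, at positions -136 to -129 in Hmgcs1, -181 to -174 and -53 to -46 in Acat2, and -9 to -2 in Insig1, counted from the start. The Hmgcs1 promoter is chr13:119690101-119690400 on the plus strand, that of Acat2 chr17:12960676-12960975 on the minus strand and that of Insig1 chr5:28071162-28071461 on the plus strand.
Hmgcs1: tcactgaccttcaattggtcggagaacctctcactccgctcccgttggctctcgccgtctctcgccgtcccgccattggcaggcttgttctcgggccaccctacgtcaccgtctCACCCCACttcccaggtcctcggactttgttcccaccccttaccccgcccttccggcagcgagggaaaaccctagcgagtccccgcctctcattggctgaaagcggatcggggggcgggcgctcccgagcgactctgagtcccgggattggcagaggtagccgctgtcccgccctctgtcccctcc
Acat2: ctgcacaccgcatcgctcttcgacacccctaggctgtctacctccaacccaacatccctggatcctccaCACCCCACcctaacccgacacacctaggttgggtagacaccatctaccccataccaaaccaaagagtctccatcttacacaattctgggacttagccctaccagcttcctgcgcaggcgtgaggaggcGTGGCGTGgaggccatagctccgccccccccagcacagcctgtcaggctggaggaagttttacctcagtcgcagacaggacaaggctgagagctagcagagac
Insig1: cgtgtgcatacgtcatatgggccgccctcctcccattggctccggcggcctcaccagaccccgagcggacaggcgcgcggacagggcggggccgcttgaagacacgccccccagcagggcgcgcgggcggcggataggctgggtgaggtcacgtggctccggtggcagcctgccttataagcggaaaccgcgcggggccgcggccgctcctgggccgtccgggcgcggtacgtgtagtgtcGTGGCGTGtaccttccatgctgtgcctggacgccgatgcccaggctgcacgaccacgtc

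Motifs of the general factors that work beside SREBP, CCAAT and GGGCGG, were found in more of the members, as was the E-box CACGTG. The promoters set beside them were not matched for base composition. CCAAT, bound by NF-Y, was in 61.8% of the members' 34 promoters and 37.4% of all promoters, on either strand. GGGCGG, bound by Sp1, was in 76.5% of the members' promoters and 35.7% of all promoters. The E-box CACGTG was in 20.6% of the members' promoters and 7.15% of all promoters. A match describes the letters and does not show that a factor binds there.

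The first enzymes lead to mevalonate, and neither of the members among them passed the test. Hmgcs1, the synthase that makes HMG-CoA (chromosome 13 at 119690379 to 119708260), stood at 151, 134 and 118 CPM in n-Braf 1, 2 and 3, against 131, 128 and 132 CPM in the controls. The n-Braf libraries lie on either side of the 3 controls, which almost coincide. Its log2 fold change was 0.04, with a 95% interval of -0.15 to 0.24. Per kilobase of exon it was the most abundant of the 18 enzymes, at 29.2 CPM in n-Braf, against 28.3 CPM in the controls. Acat2, the thiolase that joins acetyl-CoA units, had 12.6, 9.98 and 11.3 CPM in n-Braf, against 10.9, 10.4 and 11.9 CPM in the controls.

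The kinases and the decarboxylase that turn mevalonate into isopentenyl diphosphate did not pass the test. Mvk, the mevalonate kinase, was at 7.57, 7.52 and 5.45 CPM in n-Braf, against 8.84, 5.76 and 7.55 CPM in the controls, so that the groups overlap. Pmvk, which adds the next phosphate, had a log2 fold change of -0.08 (SE 0.14). Mvd, the decarboxylase, had one of -0.08 (SE 0.19). Both overlapped between the groups.

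The next steps join isoprene units into squalene. Idi1, the isomerase that supplies dimethylallyl diphosphate, was at 34.0 ± 2.84 CPM in n-Braf, against 35.9 ± 3.70 CPM among control mice (SD, n = 3 each). Fdps, which makes farnesyl diphosphate, was at 25.1 ± 2.60 CPM in n-Braf, against 26.3 ± 1.12 CPM in the controls. Fdft1, the squalene synthase and the first enzyme committed to sterols, had 73.9, 60.04 and 61.3 CPM in n-Braf, against 60.2, 65.0 and 69.0 CPM in the controls. Its highest value was in n-Braf 1 and its lowest in n-Braf 2, and its log2 fold change was 0.0079 (interval -0.20 to 0.22). Overlap with other genes limits some of these values. Fdps shares 26.7% of its exonic bases with the gene model Gm43738 on the same strand, and Fdft1 shares 18.3% with Ctsb, a cathepsin gene on the other strand. Hmgcs1 shares 12.1% with an antisense gene model, and Scap, a regulator, 13.2% with a gene model on the other strand. The setting for strand in the counting is not given in the sources used here, and no such setting could part Fdps from Gm43738. Reads in the shared parts may therefore be split between the genes. The counts of Hmgcs1, Fdps, Fdft1 and Scap were not whole in 6 of 6 libraries. The same held for Tm7sf2 and for Acat2, and for Acat2 no exonic bases shared with another gene were found. Counts that are not whole are thus not particular to genes with shared exons. Where in each gene the split reads lie was not tested.

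Sqle, the epoxidase that adds oxygen to squalene and a known control point, had 38.6, 32.3 and 26.2 CPM in n-Braf 1, 2 and 3, against 29.6, 32.4 and 34.6 CPM in the controls. The highest and the lowest of the 6 values were both in n-Braf, and the log2 fold change was 0.0084 (SE 0.13). Lss, which closes squalene epoxide into lanosterol, had a log2 fold change of 0.03 (SE 0.10). Cyp51, the demethylase that acts on lanosterol, was at 36.1 ± 3.57 CPM in n-Braf, against 37.7 ± 2.90 CPM among control mice (SD, n = 3 each).

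Msmo1, Nsdhl and Hsd17b7 work in turn to remove further methyl groups from the ring. Msmo1 had 66.5, 59.2 and 50.6 CPM in n-Braf, against 46.8, 59.3 and 68.2 CPM in the controls. Both ends of its range were in the controls, and its log2 fold change was 0.02 (interval -0.30 to 0.33). The log2 fold change was 0.04 (SE 0.14) for Nsdhl, a decarboxylating dehydrogenase, and 0.06 (SE 0.12) for the reductase Hsd17b7. Tm7sf2, a sterol reductase, had the highest log2 fold change of the 18, at 0.12 (SE 0.14). It shares 12.1% of its exonic bases with Vps51 on the same strand.

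The late enzymes include the synthesis genes with the smallest p-values. Ebp, which shifts a double bond in the sterol ring, had 4.54, 5.35 and 5.62 CPM in n-Braf, against 7.12, 5.42 and 6.74 CPM in the controls. The groups overlapped, since n-Braf 3 lay above control 2. Its log2 fold change of -0.31 (interval -0.68 to 0.05) was the lowest of the 18 and did not pass (adjusted p = 0.785). Over the 19 alternatives it lay between -0.42, without control 2, and -0.15, with the myelin mean as a covariate. Sc5d, the desaturase after it, had 35.8, 38.0 and 37.2 CPM in n-Braf, against 38.4, 38.3 and 39.2 CPM in the controls. Every n-Braf library was below every control, by a small margin (log2 fold change -0.06, interval -0.21 to 0.08). Dhcr7, a late reductase, was at 13.1 ± 1.18 CPM in n-Braf, against 12.9 ± 0.536 CPM among control mice (SD, n = 3 each).

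**Figure D2:**
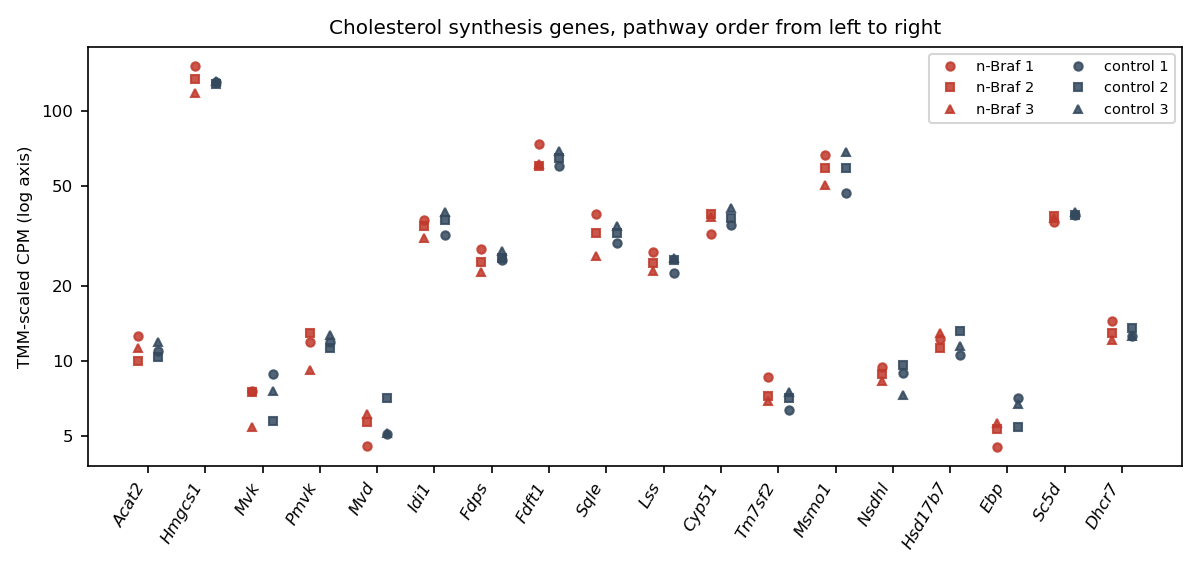
TMM-scaled CPM of the 18 synthesis genes in each library, on a log axis, in pathway order; n-Braf libraries are left of the controls for each gene, and the marker shape gives the replicate number. In Hmgcs1 and Sqle the n-Braf libraries spread from 118 to 151 and from 26.2 to 38.6 CPM, around the controls.

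The synthesis genes also differed between mice of 1 genotype. The n-Braf 1 library had the highest value of 8 of the 18 genes, and n-Braf 3 the lowest value of 7. As a mean log2 deviation from the average of the 6 libraries, the list stood at 0.065, -0.002 and -0.10 in n-Braf 1, 2 and 3, against -0.039, 0.018 and 0.062 in controls 1, 2 and 3. The myelin markers deviated by -0.24, -0.31 and 0.13 in n-Braf and by 0.15, -0.041 and 0.31 in the controls. The choroid plexus markers were highest in control 1, at 3.79, and in control 2, at 2.98, where the synthesis list was at -0.039 and 0.018.

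**Figure D3:**
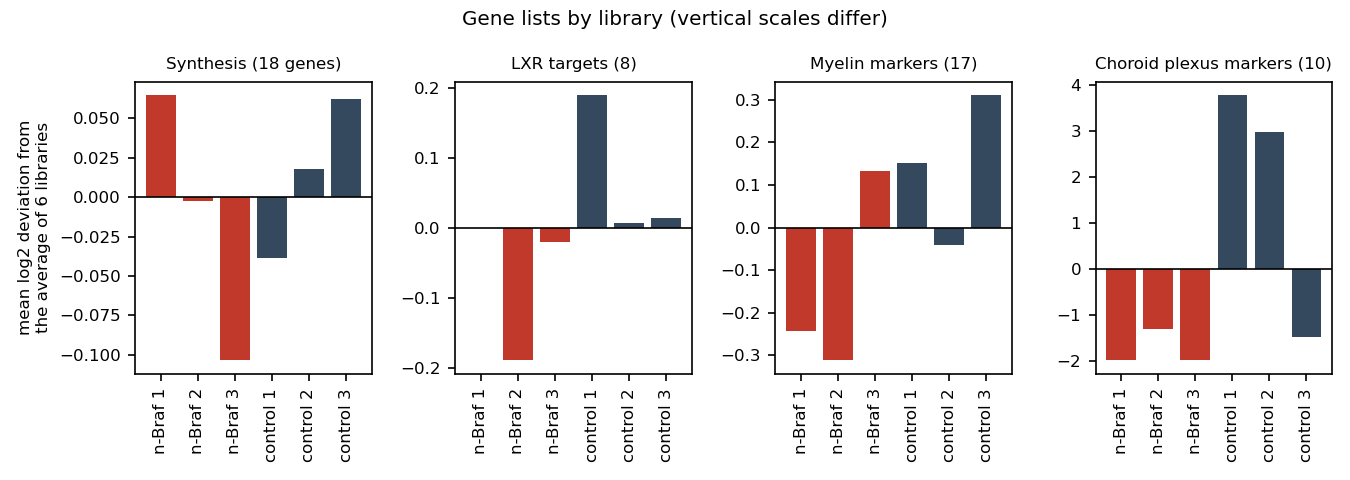
Mean log2 deviation of 4 gene lists from their average over the 6 libraries, with n-Braf left of the controls and a separate vertical scale for each list. The synthesis list is highest in n-Braf 1 and lowest in n-Braf 3, the LXR targets and the choroid plexus markers are highest in control 1, and the myelin markers are highest in control 3.

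The machinery that senses sterols did not pass the test in any of its members. The list of regulators had 3 of 7 genes with a positive log2 fold change and a median of -0.01. Srebf2, the gene of the SREBP form that drives synthesis, had 141, 139 and 123 CPM in n-Braf, against 125, 130 and 130 CPM in the controls. The n-Braf libraries enclose all 3 controls, and the log2 fold change was 0.06 (interval -0.09 to 0.22). Scap, the sterol sensor that escorts SREBP to the Golgi, was at 46.4 ± 2.21 CPM in n-Braf, against 45.7 ± 2.19 CPM among control mice (SD, n = 3 each).

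INSIG proteins hold SCAP back in the endoplasmic reticulum, and Insig1 is itself a target of SREBP. Insig1 had 34.5, 30.0 and 28.4 CPM in n-Braf, against 34.5, 28.1 and 31.0 CPM in the controls, with n-Braf 1 and control 1 level at the top. Its log2 fold change was -0.01 (interval -0.25 to 0.22). Insig2, which is not driven by SREBP in the same way, had one of 0.03 (interval -0.15 to 0.22).

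Srebf1 encodes the SREBP form that favours fatty acid genes and is an LXR target. It had 31.9, 25.6 and 26.6 CPM in n-Braf, against 43.2, 28.8 and 31.9 CPM in controls 1, 2 and 3. Control 1 stood well above the rest, and n-Braf 1 lay level with control 3, so the groups overlap. The log2 fold change was -0.30 (SE 0.15, adjusted p = 0.782). Without control 1 it was -0.11, and with the choroid plexus mean as a covariate -0.15. Per kilobase of exon the Srebf1 level was 4.97 CPM in n-Braf, against 6.14 CPM in the controls, below Srebf2 at 18.7 CPM in n-Braf, against 17.9 CPM in the controls.

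The LXR genes themselves were low to moderate. Nr1h2, which encodes LXRβ, the form found in most tissues, had 24.9, 24.2 and 24.5 CPM in n-Braf, against 30.2, 22.9 and 28.7 CPM in the controls. The 3 n-Braf values lie close together between control 2 and the other controls (log2 fold change -0.15, SE 0.11). Over the 19 alternatives the log2 fold change of Nr1h2 lay between -0.26, without control 2, and -0.05, with the myelin mean as a covariate, and it was -0.07 without control 1. Nr1h3, which encodes LXRα, was at 1.58 ± 0.116 CPM in n-Braf, against 1.86 ± 0.646 CPM among control mice (SD, n = 3 each), the lowest of the 32 in both groups. Its interval was the widest, from -0.89 to 0.42.

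Uptake ends in the lysosome, where NPC2 hands free cholesterol to NPC1 for release. Npc2 had 12.1, 11.2 and 10.3 CPM in n-Braf, against 19.4, 14.7 and 11.0 CPM in controls 1, 2 and 3. The values of controls 1 and 2 lay above all the others, and control 3 lay inside the n-Braf range. The log2 fold change was -0.42 (interval -0.84 to -0.00043), with an unadjusted p of 0.0498 and an adjusted p of 0.732 in edgeR's quasi-likelihood test. Controls 1 and 2 were also the libraries with high choroid plexus markers. With both left out the log2 fold change of Npc2 was 0.03, and with the choroid plexus mean as a covariate 0.09, so its sign turned in both fits.

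Npc1, the membrane protein that takes the sterol over, had 47.5, 47.6 and 51.1 CPM in n-Braf, against 49.3, 54.1 and 58.8 CPM in the controls. Only n-Braf 3 lay above the lowest control. Its log2 fold change was -0.15 (interval -0.33 to 0.03, adjusted p = 0.795). With controls 1 and 2 left out it was -0.27, without control 3, the highest, -0.086, and with the myelin mean as a covariate -0.074. Stard4, a soluble carrier of sterol between membranes, was at 15.0 ± 2.60 CPM in n-Braf, against 14.5 ± 1.65 CPM among control mice (SD, n = 3 each).

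Of the export genes, Abca1 had the smallest p-value of all 32 members. ABCA1 loads cholesterol onto apolipoproteins at the cell surface and is a classical LXR target. It had 56.7, 48.8 and 59.9 CPM in n-Braf, against 72.4, 66.7 and 65.1 CPM in the controls. Every n-Braf library was below every control. The fold was 0.809 (log2 fold change -0.31, SE 0.09, interval -0.50 to -0.11). The unadjusted p was 0.00625 and the adjusted p 0.543 in edgeR's quasi-likelihood test, so the gene was not called. Abca1 spans bases 53030787 to 53159895 of chromosome 4 (minus strand), and its counts were whole numbers in every library. Across 19 alternatives the log2 fold change stayed negative, between -0.49 and -0.22, with an adjusted p from 0.1755 to 0.9999 and an unadjusted p under 0.05 in 16. It was -0.24 against control 3 alone, -0.25 with the choroid plexus mean as a covariate and -0.22 with the myelin mean as a covariate.

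The promoters of Abca1 and Srebf1, 2 known LXR targets, are shown. The pair was picked with their log2 fold changes of -0.31 and -0.30 known, and without control 1 that of Srebf1 was -0.11. Abcg1, another LXR target, had a log2 fold change of 0.01 and no promoter matched. Promoters of the other LXR targets are not shown, and a shared cause was not tested. LXR binds a direct repeat of NGGTCA or NGGTTA with 4 bases between the repeat units, searched on both strands. This pattern was widened after the Abca1 promoter had been read, so the match there was fixed by the choice of pattern, and no share of the members is set against other genes. The pattern is in 0.213% of all promoters. Capitals mark it at -67 to -52 in Abca1 (chr4:53159846-53160145, minus strand) and at -182 to -167 in Srebf1 (chr11:60210422-60210721, minus strand), where it lies in 1 of the 3 promoters that RefSeq gives for the gene.
Abca1: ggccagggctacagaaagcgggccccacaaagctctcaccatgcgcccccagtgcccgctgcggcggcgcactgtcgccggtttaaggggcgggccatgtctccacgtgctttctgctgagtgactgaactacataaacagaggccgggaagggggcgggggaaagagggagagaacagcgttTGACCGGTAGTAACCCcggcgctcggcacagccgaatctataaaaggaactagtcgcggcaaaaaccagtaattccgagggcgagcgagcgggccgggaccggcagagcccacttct
Srebf1: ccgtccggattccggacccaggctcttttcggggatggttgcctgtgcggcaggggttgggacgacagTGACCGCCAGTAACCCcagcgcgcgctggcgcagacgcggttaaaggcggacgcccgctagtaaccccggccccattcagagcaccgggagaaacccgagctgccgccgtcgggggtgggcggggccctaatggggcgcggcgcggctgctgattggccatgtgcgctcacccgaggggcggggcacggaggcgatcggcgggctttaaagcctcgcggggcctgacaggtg

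The other exporters gave values near or above those of the controls. Abcg1, another LXR target, which passes cholesterol to lipoprotein particles, had 48.9, 52.6 and 57.8 CPM in n-Braf, against 48.7, 56.7 and 52.3 CPM in the controls, a log2 fold change of 0.01 (interval -0.18 to 0.20). Abcg4, its close relative in neurons and astrocytes, had 30.4, 36.1 and 29.3 CPM in n-Braf, against 25.2, 28.9 and 29.9 CPM in the controls. The groups overlapped through n-Braf 3, and the log2 fold change of 0.19 (SE 0.10, adjusted p = 0.802) was the highest of the 32. Over the 19 alternatives it lay between 0.091, without n-Braf 2, and 0.38, with age as a covariate. It was 0.12 without control 1, 0.094 without controls 1 and 2, and 0.10 with the mean of either the myelin or the choroid plexus markers as a covariate. Cyp46a1, the neuronal hydroxylase that turns cholesterol into a form able to leave the brain, had 53.6, 49.8 and 41.5 CPM in n-Braf, against 45.4, 44.5 and 47.8 CPM in the controls. Its n-Braf values enclosed the controls (log2 fold change 0.07, interval -0.14 to 0.29). Over the 4 export genes the median was 0.04, with 3 positive and 1 negative.

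**Figure D4:**
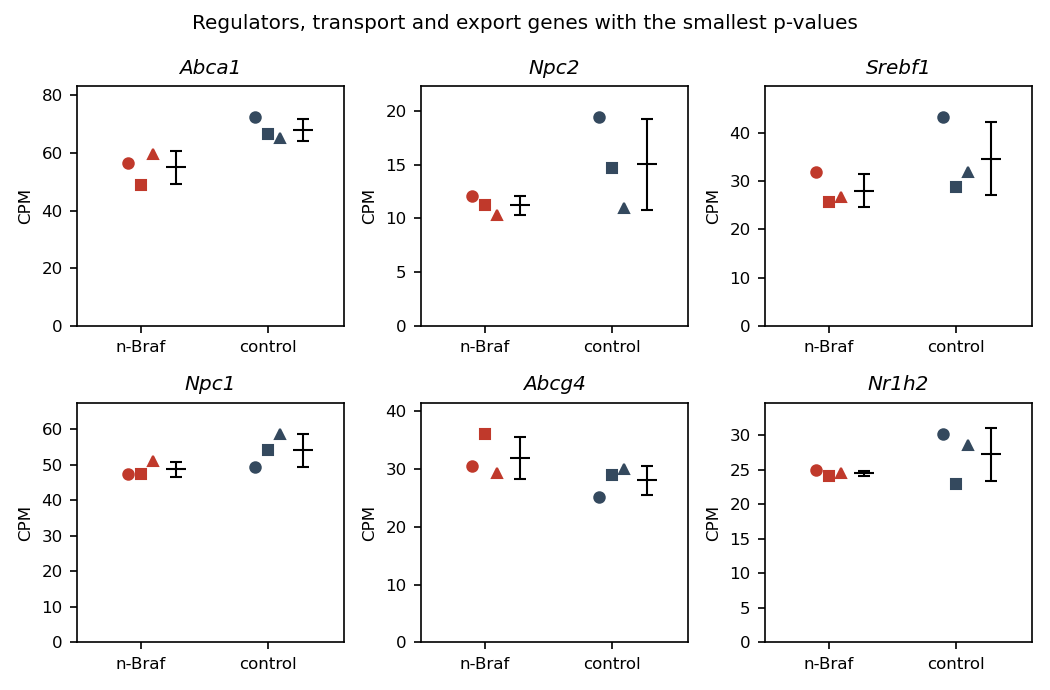
CPM per library of the 6 genes outside synthesis with the smallest p-values, with n-Braf left of control and the mean ± SD beside the points; marker shapes give the replicate number. In Abca1 the n-Braf libraries, from 48.8 to 59.9 CPM, lie below the controls, from 65.1 to 72.4 CPM, while in Npc2 controls 1 and 2 stand above the other libraries.

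Other genes of sterol and lipid handling, from lists chosen with earlier results of these data known, gave 0 genes past the threshold. Fatty acid synthesis, the main outlet of SREBP1, had 9 of 16 genes positive and a median of 0.01. The desaturase Scd1 was at -0.14 (SE 0.09) and the elongase Elovl6 at 0.16 (SE 0.10) on the log2 fold change scale. Genes that process SREBP or degrade INSIG had 6 of 11 positive and a median of 0.02, with Erlin2, an endoplasmic reticulum protein, at -0.20 (SE 0.12) and Nploc4 at 0.11 (SE 0.08). Isoprenoid branches had 8 of 12 positive and a median of 0.04, with Coq2, an enzyme of ubiquinone synthesis, at 0.11 (SE 0.06) and Nus1 at 0.07 (SE 0.06). Esterification and lysosomal hydrolysis had 3 of 5 positive and a median of 0.05, with the hydrolase Nceh1 at 0.12 (SE 0.08) and the lysosomal lipase Lipa at -0.21 (SE 0.16).

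In the list named sterol transfer proteins, 9 of 16 genes had a positive log2 fold change, with a median of 0.04. The list is broad, and not every gene in it is a carrier of cholesterol. Gramd1b, which carries sterol from the plasma membrane, had 195, 203 and 212 CPM in n-Braf, against 173, 192 and 183 CPM in the controls. Osbpl8 had 111, 106 and 109 CPM in n-Braf, against 93.7, 99.7 and 98.8 CPM in the controls. In both genes every n-Braf library lay above every control, and the log2 fold changes were 0.15 (SE 0.07, adjusted p = 0.730) and 0.16 (SE 0.06, adjusted p = 0.678). Over the list 4 of 16 genes had every n-Braf library above the controls, against the 6.09% of all genes given above.

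Enzymes of oxysterols had 2 of 6 positive and a median of -0.22. Ch25h, which makes an oxysterol that binds LXR, had between 4 and 26 counts per library. It was at 0.814, 0.661 and 0.443 CPM in n-Braf, against 0.224, 0.337 and 0.156 CPM in the controls, with no overlap (log2 fold change 1.40, SE 0.45, adjusted p = 0.614). Sult2b1, a sterol sulfotransferase gene, was at 0.33 (SE 0.14, adjusted p = 0.730). The other 4 genes had negative log2 fold changes, and the lowest of them, picked after their values were seen, were Cyp39a1 at -0.76 (SE 0.41, 9 to 25 counts) and Hsd3b7 at -0.71 (SE 0.32, adjusted p = 0.746). Hsd3b7 had 0.626, 1.07 and 1.02 CPM in n-Braf, against 1.90, 1.46 and 1.09 CPM in the controls, so that every n-Braf library was below every control.

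The LXR target list held 8 genes, 3 of them members described above, and 5 of the 8 were negative, with a median of -0.15. Pltp, the phospholipid transfer protein gene, had 24.7, 20.5 and 22.7 CPM in n-Braf, against 39.7, 29.0 and 27.7 CPM in controls 1, 2 and 3. Every n-Braf library was below every control, and control 1 stood highest (log2 fold change -0.50, SE 0.14, adjusted p = 0.543). As a mean log2 deviation, the list stood at 0.0001, -0.19 and -0.021 in n-Braf 1, 2 and 3, against 0.19, 0.0066 and 0.014 in controls 1, 2 and 3. Control 1 was also the highest library for the markers of the choroid plexus, at 3.79, of the leptomeninges, at 1.11, of the ependyma, at 0.89, and of endothelium and mural cells, at 0.27. The log2 fold change was negative for 6 of 6 ependyma markers tested, of 10 listed (median -1.12). In 5 of them every n-Braf library was below every control, against 5.44% of all genes. The log2 fold change was also negative for 7 of 8 leptomeninges markers (median -0.61) and for 6 of 10 markers of endothelium and mural cells (median -0.08). The part of these cell types in the values of Pltp was not tested. Nus1 stands in 2 of the lists and counts in both.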

How the data were processed

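Strand-aware libraries were made from hippocampal RNA of 6 mice, 1 per mouse. The submitters' processing notes name bcl2fastq 2.20, fastp 0.20.1, STAR, RSEM, edgeR 3.36.0 and the mm10 build. For STAR and RSEM no version is given there, and none is stated here. The authors deposited expected counts per gene, which RSEM can split between genes and which are therefore not always whole. The same table holds the authors' deposited log2 fold changes and p-values. Genes with low counts were already absent, since the third highest count of each listed gene was at least 8.75.

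Expected counts were rounded and tested with edgeR 4.0.16 in R 4.3.3 (filterByExpr with a minimum count of 10, TMM scaling, quasi-likelihood test, Benjamini-Hochberg adjustment over 20604 genes). All values are n-Braf over control on the log2 scale, with 95% intervals from the same fit. Exonic lengths came from GENCODE annotation of GRCm38. The test was first run on simulated counts. Every member is named, and of each other lipid list the 2 genes with the smallest p. Of marker lists set beside a result, abundant members were named, and Camk2a served as a check of the labels. Some genes of the other lists are not reported here by name. The members and lists were chosen with earlier results of these data known. The pattern of the LXR element was widened after a promoter had been read, and the choroid plexus covariate was added after the data were seen. DESeq2 1.42.0, limma-voom (limma 3.58.1), edgeR's exact test, other scalings and filters, covariates and left-out libraries were alternatives. No label says more of how the mice relate, so each of the 6 mice was taken as 1 independent replicate. The p-values set the difference between the groups against the spread between mice of the same group. Same-numbered libraries correlated by 0.10, -0.046 and -0.014 in their deviations, so the numbers were not taken to pair them.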

Additional observations from a re-analysis of the deposited data

How the results depend on the processing

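In all 19 alternatives 0 of the 32 genes passed an adjusted p of 0.05, with a lowest adjusted p of 0.1755. The sign was kept throughout by 7 genes (Ebp, Sc5d, Srebf1, Nr1h2, Npc1, Abca1 and Abcg4) and changed at least once in 25. Over all genes DESeq2 called 78, edgeR's exact test 66, and the fit without controls 1 and 2 called 3, against 0 in the quasi-likelihood test; leaving out 1 library each gave 0 to 82, the highest without control 3. The synthesis median was -0.063 with the myelin covariate, -0.084 without controls 1 and 2 and -0.091 with the choroid plexus covariate. The export median was 0.084 with age, 0.0067 with myelin and 0.0093 with choroid plexus as a covariate, and 0.011 to 0.061 with 1 library left out. Npc2 turned to 0.032 without controls 1 and 2 and to 0.086 with the choroid plexus covariate. The cause was not tested. With the replicate number as a block (replicate block), 0 genes were called and the synthesis median was -0.00096. Depth limits Nr1h3 most, with 31 counts in its lowest library.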
